A study of Homo sapiens with 6 samples.

Results

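The 10 genes described here encode the 5 subunits of the transcription factor NF-κB (NFKB1, NFKB2, RELA, REL and RELB), 4 proteins of the IκB family (NFKBIA, NFKBIE, NFKBIZ and BCL3) and the inhibitor TNFAIP3. They were chosen by gene symbol from the 36601 genes of the count matrix, where all 10 were found. The rule itself uses no measured value, but the group was proposed with earlier results of these data known. RNA was sequenced from NK-92, a line of human natural killer (NK) lymphoma cells kept in IL-2. The cells stably carried a control shRNA (shCtrl, 3 libraries) or an shRNA against the long non-coding RNA miR155HG (shmiR155HG, 3 libraries). Both groups had received 1000 U/mL of IL-2 together with 10 ng/mL of IL-12 for 12 h, so that no unstimulated cells are compared. The shRNA sequence is not given in the labels, which also do not say whether the lines were clones or the libraries separate cultures. The p-values therefore measure the spread between these libraries, which may be technical.

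NF-κB proteins bind DNA as dimers and drive genes of inflammation, survival and proliferation in lymphocytes. In resting cells the dimers are held in the cytoplasm by IκB proteins, and receptors of the TNF, IL-1 and antigen receptor families release them through IκB kinases that mark the inhibitor for degradation. Several inhibitors are themselves NF-κB target genes, which gives the pathway its negative feedback. In NK cells the pathway takes part in the production of cytokines and in the response to IL-18.

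The sites that NF-κB binds are known as κB sites, and the promoters of the members were searched for letters that match them. RefSeq promoter windows of GRCh38.p14, from 250 bases before to 50 bases after a gene's start, were given for 8 of the 10 members, and the κB consensus of 10 bases was searched on both strands. At least 1 match lay in the windows of 7 of these 8 members, with none in those of RELA. Over all windows the share with a match was 5.91% (2075 of 35116), and over the tested genes with a window it was 8.56% (782 of 9138). The matches below, 1 for each of the 7 members and a second for TNFAIP3, are shown with 10 bases on either side, 5′ to 3′ on the strand of the gene, and capitals mark the match.
NFKB1, chr4:102501300-102501329, plus strand: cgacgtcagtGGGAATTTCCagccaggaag
NFKB2, chr10:102394461-102394490, plus strand: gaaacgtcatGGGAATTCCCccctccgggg
REL, chr2:60881517-60881546, plus strand: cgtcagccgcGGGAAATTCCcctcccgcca
NFKBIA, chr14:35404811-35404840, minus strand: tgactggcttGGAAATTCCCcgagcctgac
NFKBIZ, chr3:101827757-101827786, plus strand: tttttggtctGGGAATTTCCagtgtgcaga
BCL3, chr19:44748700-44748729, plus strand: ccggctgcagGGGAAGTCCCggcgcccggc
TNFAIP3, first match, chr6:137867182-137867211, plus strand: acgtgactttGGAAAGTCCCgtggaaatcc
TNFAIP3, second match, chr6:137867194-137867223, plus strand: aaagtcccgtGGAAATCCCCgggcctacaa

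Distances were counted from the RefSeq start that defines each window, which can differ from the first base of the gene in GENCODE given further on. On this scale the match of NFKBIA began 81 bases before the start, that of NFKB1 49 bases and that of NFKBIZ 223 bases before it, and that of BCL3 2 bases after it. In REL and NFKB2 a further match overlapped the one shown by 9 bases, and the matches shown for NFKB1 and NFKBIZ have the same letters. A match is a description of the letters in the window, and binding of NF-κB was not measured.

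MIR155HG (ENSG00000234883), the targeted gene, lies at chr21:25561810-25575168 of hg38 on the plus strand. It had 73, 67 and 62 counts in shCtrl cells and 28, 19 and 10 in shmiR155HG cells, for a log2 fold change of −1.78 with an SE of 0.43 (adjusted p = 0.0045 in the quasi-likelihood test of edgeR). The 6 libraries held 33454786 to 39157264 counts each, and replicates differed with a common biological coefficient of variation of 8.71%. Of 9 NK cell markers, 8 were above the expression filter, of which GZMB and PRF1 were lower and IL2RB was higher in shmiR155HG cells. CD7 was below it, and TYROBP had a mean of 1.41 CPM (counts scaled to a library total of 1000000) in shCtrl cells. The T cell markers CD3D, CD3G, CD4 and CD8A, all 3 B cell markers and all 3 erythroid markers were below the filter. TRAC, the remaining T cell marker, was at 72.4 CPM in both groups. Of 4 myeloid markers, ITGAM, which NK cells also express, was lower in shmiR155HG cells (log2 fold change −0.60, adjusted p = 0.0161). Its groups overlapped, at 8.61 to 15.24 CPM in the shCtrl libraries and 7.21 to 8.62 CPM in the shmiR155HG libraries. CSF1R was at 4.82 and 3.47 CPM in shCtrl and shmiR155HG cells without passing the test, and CD14 and LYZ were below the filter. In bulk RNA, fewer cells of a kind and less RNA per cell cannot be told apart.

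Members of the IκB family changed in both directions in shmiR155HG cells, and none of the 5 subunits passed the test. NFKBIA, which encodes IκBα, fell by 18.0%, and NFKBIZ, which encodes the nuclear protein IκBζ, fell by 24.6%. NFKBIE, which encodes IκBε, rose by 35.3%, and BCL3, a nuclear partner of the p50 and p52 subunits, rose by 13.6%. Each value is shmiR155HG against shCtrl, tested in edgeR by quasi-likelihood with p-values adjusted after Benjamini and Hochberg over the 12263 genes that exceeded 1 CPM in 2 or more libraries. Of the 10 members, all of which passed this filter, 2 were higher (7.26% of all genes tested were) and 2 were lower (8.02% of all genes). The count of 2 higher was 1 without shmiR155HG replicate 2, without shmiR155HG replicate 3 or after correction for transcript GC content, and 0 with that correction and a replicate block. Together 4 of 10 passed an adjusted p of 0.05, compared with 15.3% of all genes tested. For 6 members, 4 higher and 2 lower, the groups did not overlap in value, which held for 30.8% of all genes. The median log2 fold change was 0.063 over the members and 0.001 over all genes tested.

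**Figure D1:**
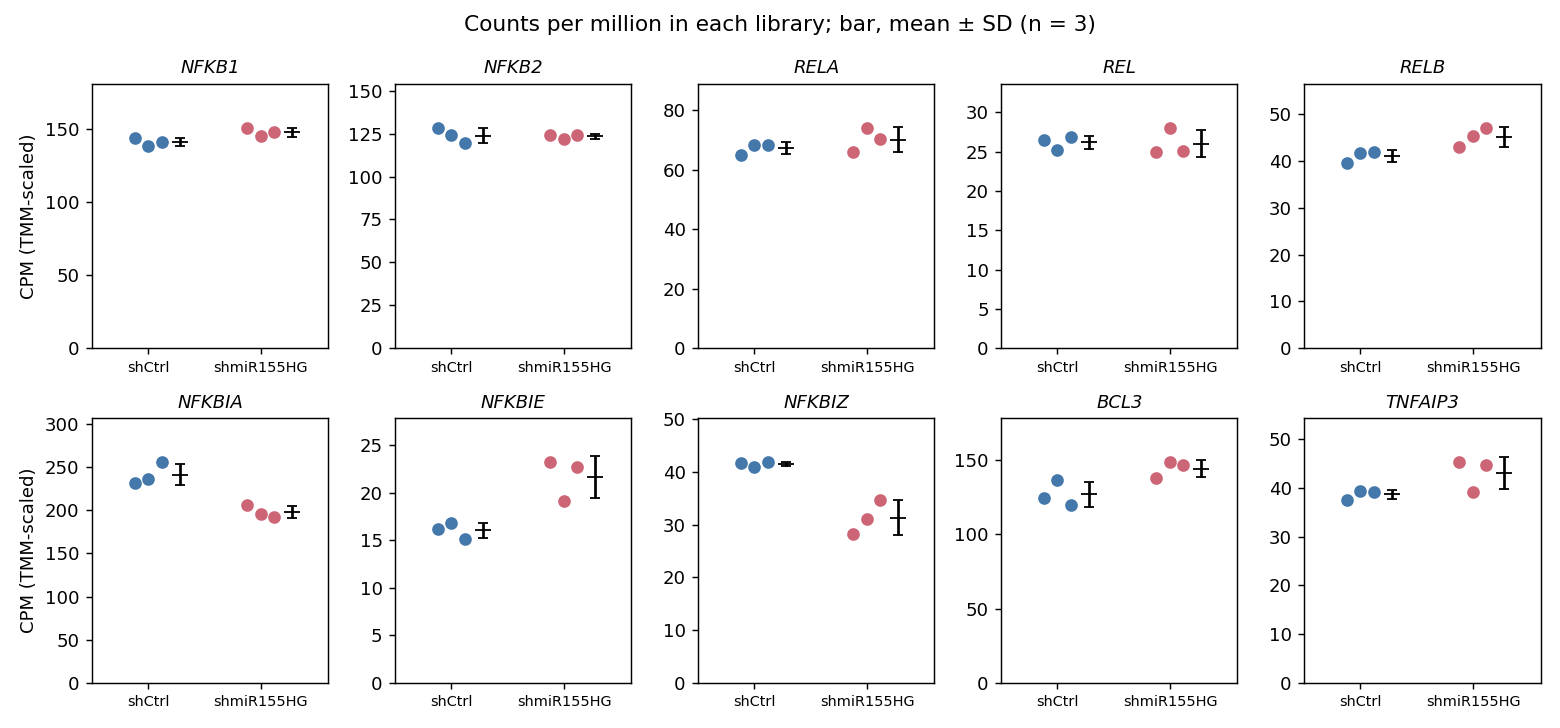
TMM-scaled CPM of the 10 members, 1 panel per gene with its own axis from 0. Each point is a library (blue, shCtrl; red, shmiR155HG), and the black mark beside each group is its mean ± SD (n = 3). The shmiR155HG points of NFKBIA and NFKBIZ all lie below the shCtrl points, and those of NFKBIE and BCL3 all lie above them.

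The inhibitors that hold dimers in the cytoplasm were NFKBIA and NFKBIE. IκBα is the most rapidly degraded and resynthesised IκB protein and acts mainly on dimers that hold RELA. The gene NFKBIA (ENSG00000100906, chr14:35401079-35404749 of hg38, minus strand, 6 exons in the canonical transcript) was at 232.1, 236.1 and 255.4 CPM in shCtrl replicates 1, 2 and 3. In shmiR155HG replicates 1, 2 and 3 it was at 206.0, 195.1 and 192.4 CPM. Every shmiR155HG library lay below every shCtrl library. The means were 241.2 ± 12.5 and 197.8 ± 7.20 CPM (SD, n = 3 each), with a log2 fold change of −0.29 with an SE of 0.042 (adjusted p = 1.47e-05). Over 17 alternative settings the change remained between −0.34 and −0.24, with an adjusted or, for the exact test, unadjusted p of 0.00121 or less.

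IκBε, encoded by NFKBIE, is a second cytoplasmic inhibitor that binds dimers of RELA and REL. NFKBIE (ENSG00000146232, chr6:44258166-44265788, minus strand, 6 exons) was at 16.2, 16.8 and 15.2 CPM in the shCtrl libraries, from 629, 612 and 591 counts. It was at 23.2, 19.2 and 22.8 CPM in the shmiR155HG libraries, from 890, 729 and 761 counts. The lowest shmiR155HG library, replicate 2, was above the highest shCtrl library. The means were 16.0 ± 0.814 and 21.7 ± 2.22 CPM (SD, n = 3 each), with a log2 fold change of 0.44 with an SE of 0.11 (adjusted p = 0.00659). In this fit it had the largest change in size of the members that passed, but NFKBIZ had a larger one after GC correction, with GC correction and a replicate block, and without shmiR155HG replicate 3. After correction for transcript GC content the change was 0.34 (adjusted p = 0.0358), and with a replicate block added to that correction it was 0.34 (adjusted p = 0.052).

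The opposite changes of these inhibitors altered their relation to each other. Per transcript length, NFKBIE stood at 0.0463, 0.0473 and 0.0395 of the NFKBIA level in the shCtrl libraries. The ratio was 0.0749, 0.0653 and 0.0787 in the shmiR155HG libraries. The groups could not overlap in this ratio, since they overlapped for neither gene and the genes moved in opposite directions. NFKBIA remained the more abundant by far. The NFKBIA level per RELA level was 5.80 ± 0.229 in shCtrl cells and 4.58 ± 0.422 in shmiR155HG cells (SD, n = 3 each). These ratios were formed after the values of single genes were known and are given as a description.

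The members that act in the nucleus were NFKBIZ and BCL3, both atypical IκB proteins that join NF-κB dimers on DNA and can raise transcription. NFKBIZ (ENSG00000144802, chr3:101827991-101861022, plus strand, 12 exons) was at 41.7, 41.0 and 41.8 CPM in the shCtrl libraries. In the shmiR155HG libraries it was at 28.2, 31.1 and 34.8 CPM. The shCtrl libraries lay close together, while the shmiR155HG libraries were spread more widely and all below them. The means were 41.5 ± 0.421 and 31.4 ± 3.29 CPM (SD, n = 3 each), with a log2 fold change of −0.41 with an SE of 0.081 (adjusted p = 0.000753). Leaving out single libraries moved this value between −0.48 and −0.34, and it passed the test each time. NFKBIZ shares 194 exonic bases with NXPE3 on the same strand, and NXPE3 was at 45.0 ± 0.934 and 47.3 ± 1.82 CPM in shCtrl and shmiR155HG cells.

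BCL3 (ENSG00000069399, chr19:44747705-44760044, plus strand, 9 exons) was at 124.2, 136.6 and 119.9 CPM in the shCtrl libraries. It was at 137.8, 148.4 and 146.5 CPM in the shmiR155HG libraries. The groups did not overlap, but shCtrl replicate 2 and shmiR155HG replicate 1 differed by little. The log2 fold change was 0.18 with an SE of 0.050 (adjusted p = 0.0104). It did not pass without shmiR155HG replicate 2 (0.16, adjusted p = 0.0785) or without shmiR155HG replicate 3 (0.18, adjusted p = 0.054). After correction for GC content it was 0.053 (adjusted p = 0.545).

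Transcript GC content moved with the fold changes of the whole table, and the members span much of its range. The median log2 fold change was −0.054 in the fifth of genes with the lowest GC content (median 38.3%) and 0.069 in the fifth with the highest (median 61.5%). Of the members, REL had the lowest GC content at 38.4% and BCL3 the highest at 66.4%, with RELB at 64.9%. The correction, a loess curve per library, left NFKBIA at −0.34 (adjusted p = 1.07e-06) and NFKBIZ at −0.41 (adjusted p = 0.000851). It moved RELB from 0.14 to 0.016 and NFKB2 from −0.0053 to −0.10, neither passing the test before or after.

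**Figure D2:**
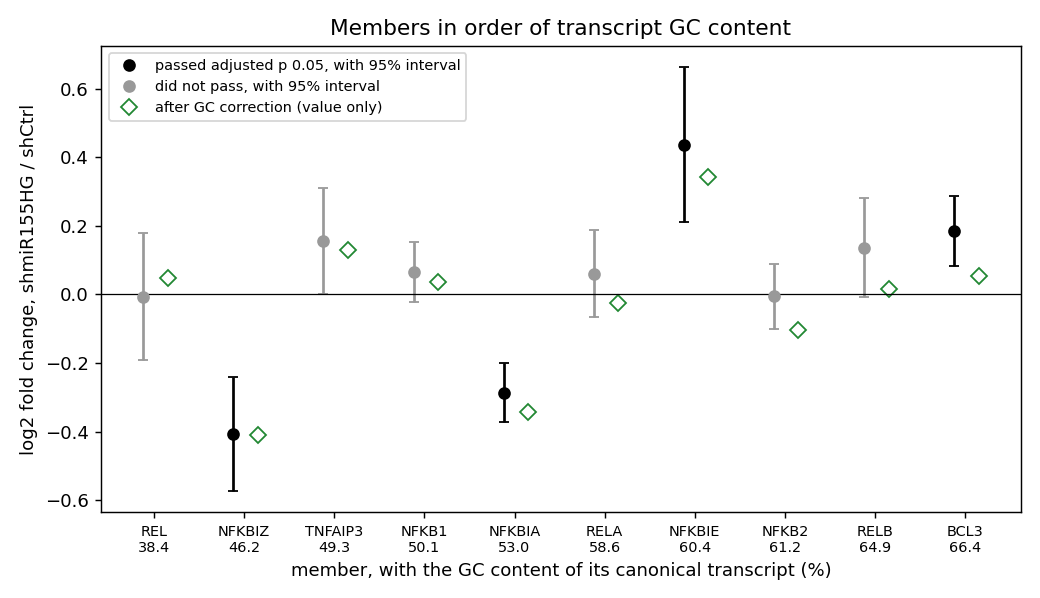
Log2 fold change of each member, shmiR155HG against shCtrl, with members ordered along the horizontal axis by the GC content of the canonical transcript (%, under each name). Circles with bars are the fitted value and its 95% interval, black where the adjusted p was under 0.05, and open green diamonds are the values after GC correction. The diamond of BCL3 lies near 0 (0.053), while those of NFKBIA, NFKBIZ and NFKBIE stay on the side of their circles.

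TNFAIP3 encodes A20, a ubiquitin-editing enzyme that stops signalling upstream of the IκB kinases. TNFAIP3 (ENSG00000118503, chr6:137867214-137883314, plus strand, 9 exons) was at 37.6, 39.3 and 39.3 CPM in the shCtrl libraries and at 45.3, 39.3 and 44.9 CPM in the shmiR155HG libraries. Replicates 1 and 3 of shmiR155HG were above every shCtrl library, and replicate 2 was within the shCtrl range. The log2 fold change was 0.15 with an SE of 0.075 (adjusted p = 0.18) with a 95% interval from 0.00090 to 0.31. The lncRNA WAKMAR2 overlaps it on the opposite strand over 95 exonic bases, with 28 to 50 counts per library, and whether counting used the strand is not stated.

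None of the 5 subunits passed the test, 0 had an unadjusted p under 0.05 in edgeR, and the exact test, DESeq2 and limma-voom also called 0. Their 95% intervals come from the fit without GC correction and cover only the spread between these libraries. NFKB1 (ENSG00000109320, chr4:102501330-102617302, plus strand) encodes p105, which is processed to p50. It was at 143.8, 138.3 and 141.4 CPM in the shCtrl libraries and at 150.9, 144.9 and 147.7 CPM in the shmiR155HG libraries. The groups did not overlap, yet the log2 fold change was only 0.066 with an SE of 0.043 (adjusted p = 0.336, 95% interval −0.021 to 0.15).

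NFKB2 (ENSG00000077150, chr10:102394110-102402524, plus strand) encodes p100, the precursor of p52 and itself an inhibitor of RELB dimers. It was at 128.5, 124.0 and 119.3 CPM in the shCtrl libraries and at 124.3, 121.9 and 124.2 CPM in the shmiR155HG libraries, which lay within the shCtrl range. The 95% interval of its log2 fold change ran from −0.0996 to 0.0891 (adjusted p = 0.963). The value after GC correction, −0.1027, lay just outside this interval. In that fit the median over all genes tested was also lower, at −0.0159 compared with 0.001 without the correction.

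RELA, REL and RELB are the subunits with a transactivation domain. RELB (ENSG00000104856, chr19:45001461-45038192, plus strand), the main partner of p52, was at 39.6, 41.6 and 41.9 CPM in the shCtrl libraries and at 43.0, 45.2 and 47.1 CPM in the shmiR155HG libraries. The groups did not overlap, and the log2 fold change was 0.14 with an SE of 0.071 (adjusted p = 0.216, 95% interval −0.0085 to 0.28). RELA (ENSG00000173039, chr11:65653599-65663090, minus strand), the p65 subunit, was at 65.0, 68.3 and 68.3 CPM in the shCtrl libraries and at 65.8, 74.0 and 70.3 CPM in the shmiR155HG libraries. Its groups overlapped, and the 95% interval was −0.066 to 0.19 (adjusted p = 0.587). REL (ENSG00000162924, chr2:60881491-60931612, plus strand), or c-Rel, was at 26.5, 25.3 and 26.8 CPM in the shCtrl libraries and at 24.9, 28.1 and 25.2 CPM in the shmiR155HG libraries. Its groups overlapped as well, with a 95% interval from −0.19 to 0.18 (adjusted p = 0.974). The lncRNA AC010733.2 shares 5702 exonic bases with REL on the same strand and had 24 to 130 counts per library, so the division of reads between the genes is uncertain.

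Levels can be compared between members only per length, as RPKM (CPM divided by the transcript length in kilobases) over the canonical transcript. In shCtrl cells NFKBIA had the highest level at 154.7 ± 8.0 RPKM (SD, n = 3), followed by BCL3 at 67.6 ± 4.6, NFKB2 at 41.1 ± 1.53 and NFKB1 at 34.8 ± 0.674 RPKM. RELA at 26.7 ± 0.767 and RELB at 18.2 ± 0.563 RPKM came next. NFKBIZ, TNFAIP3 and NFKBIE stood at 10.6 ± 0.107, 8.30 ± 0.205 and 6.84 ± 0.347 RPKM, and REL was lowest at 2.36 ± 0.0742 RPKM. No neighbours in this order overlapped between their shCtrl libraries. In shmiR155HG cells the values of NFKBIZ (7.19 to 8.86 RPKM), TNFAIP3 (8.42 to 9.70) and NFKBIE (8.17 to 9.90) overlapped, so that the order of these 3 genes was lost. With the length of all exons of a gene in place of the canonical transcript, RELB in shCtrl cells (13.7 RPKM) stood above RELA (12.3) and NFKB1 (9.0), and NFKBIE (6.21) above TNFAIP3 (6.01).

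**Figure D3:**
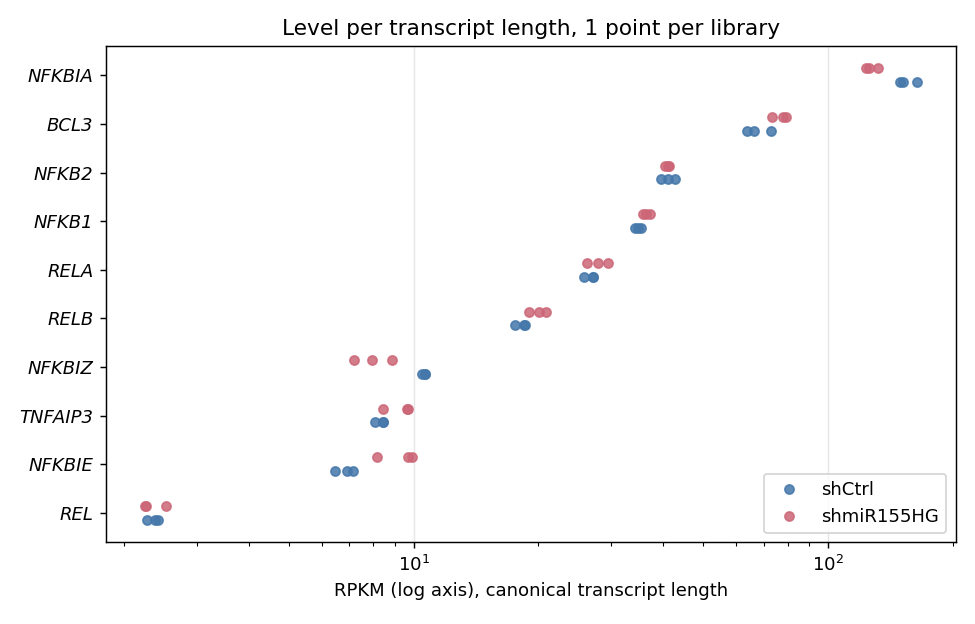
Level per transcript length of the 10 members in RPKM on a log axis, 1 point per library (blue, shCtrl; red, shmiR155HG), ordered by the shCtrl mean. NFKBIA is highest at 123.4 to 163.8 RPKM and REL lowest at 2.25 to 2.53 RPKM, and the red points of NFKBIZ, TNFAIP3 and NFKBIE overlap where their blue points do not.

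The make-up of the subunit pool at the RNA level was also compared. NFKB2 was 33.4% of the summed subunit level in shCtrl cells and 32.1% in shmiR155HG cells. NFKB1 was 28.3% and 28.6%, RELA 21.7% and 21.8%, RELB 14.8% and 15.7%, and REL 1.91% and 1.84%. The groups overlapped for all 5 shares. A two-sided exact permutation test over 3 against 3 libraries gave p from 0.2 to 1 (adjusted p from 0.5 to 1), but its smallest possible p is 0.1, so that no share could have passed and the test does not show that the shares are alike. With the length of all exons of a gene, the RELB share did not overlap, at 22.4% to 23.9% in shCtrl and 24.0% to 25.5% in shmiR155HG libraries (exact permutation p = 0.1, adjusted p = 0.5), and the other 4 shares overlapped. The summed level itself was 123.8, 123.1 and 122.5 RPKM in the shCtrl libraries and 125.9, 128.1 and 128.7 RPKM in the shmiR155HG libraries, without overlap, and is given as a description. With GC correction the fits of single genes gave log2 fold changes of 0.035 for NFKB1, −0.10 for NFKB2 and −0.025 for RELA. They gave 0.048 for REL and 0.016 for RELB. The sum was not formed with that correction, and the groups did not overlap for 30.8% of all genes tested.

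The miR-155 microRNA is cut from the transcript of MIR155HG, so the 3′ untranslated regions of the members were searched for its seed site. The mature sequence in RefSeq (GRCh38.p14, chr21:25573983-25574006, plus strand), with the seed of bases 2 to 8 in capitals, and the members' sites, with the site of 7 bases in capitals, are as follows.
miR-155-5p: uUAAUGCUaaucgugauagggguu
RELA site: gcttaagcagaAGCATTAacttctctgga
REL site: gacttctcattAGCATTAactagttattg

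Sites were found in 2 of the 10 members, at base 197 of 777 in RELA and base 7840 of 9077 in REL, and in 1278 of the 10760 tested genes with such a region (11.9%). Neither RELA nor REL passed the test, as given above, and none of the 4 members that passed it held a site. Members this few cannot show whether a site goes with a change. Over the tested genes the median log2 fold change was −0.0203 with a site and −0.0019 without, and the difference was not tested. MicroRNA levels were not measured in these libraries.

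The genes with the pattern most like that of NFKBIE over the 6 libraries were ITGB1 (Pearson r = 0.996 of log2 CPM), IL2RG (r = 0.995) and CYP2E1 (r = 0.995). ITGB1 encodes integrin β1 and IL2RG the common γ chain of the IL-2 receptor family. ITGB1 itself was higher in shmiR155HG cells (log2 fold change 0.19, adjusted p = 0.00419), whereas IL2RG had a log2 fold change of 0.072 (adjusted p = 0.171). The points share libraries and a group difference, and the values are a description.

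Other genes of the pathway were counted in 4 lists, which were chosen with earlier results of these data known. Over all genes tested 15.3% passed, 7.26% higher and 8.02% lower, and the median log2 fold change was 0.001. Among ligands and receptors, 14 of 31 genes passed the expression filter, 7 of these were lower, none was higher, and the median log2 fold change was −0.13. At an unadjusted p under 0.05 in edgeR 1 gene, TNFRSF9, was higher (0.46, adjusted p = 0.14), and the exact test, DESeq2 and limma-voom called 0 higher. Both chains of the IL-18 receptor were among the 7 lower genes. IL18RAP fell from 14.8 ± 0.740 to 5.29 ± 0.792 CPM (SD, n = 3 each, log2 fold change −1.48, SE 0.15, adjusted p = 5.36e-08). IL18R1 fell from 63.8 ± 3.74 to 37.9 ± 1.52 CPM (log2 fold change −0.75, SE 0.069, adjusted p = 5.51e-09). TNFRSF13C, the receptor for BAFF that signals through the NFKB2 arm, had a log2 fold change of −0.73 with an SE of 0.19 (adjusted p = 0.0071). Its call did not hold without shCtrl replicate 1 (−0.54, adjusted p = 0.0979) or shmiR155HG replicate 1 (−0.61, adjusted p = 0.0566). The other lower genes of the list were LTA (log2 fold change −0.24), LTB (−0.14), TNFSF14 (−0.29) and TNFRSF1B (−0.10), the first 2 being lymphotoxin genes. TNF was at 71.8 and 74.5 CPM in shCtrl and shmiR155HG cells and did not pass (adjusted p = 0.67). The count of 7 genes was 5 without shCtrl replicate 2, shmiR155HG replicate 1 or shmiR155HG replicate 2.

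Among kinases and adaptors that activate NF-κB, all 34 were tested, 6 were higher, 4 were lower, and the median was −0.016. Together 29.4% of this list passed, compared with 15.3% of all genes tested. UBE2V1, part of the enzyme that builds K63-linked ubiquitin chains, had a log2 fold change of −0.29 with an SE of 0.042 (adjusted p = 1.63e-05). The kinase genes pointed both ways. IKBKB, the main IκB kinase, was higher by 0.21 (adjusted p = 0.0146), and BIRC2, a ubiquitin ligase, by 0.22 (adjusted p = 0.0128). IKBKE and MAP3K14, the latter encoding the NIK kinase that drives processing of p100, had log2 fold changes of −0.29 (adjusted p = 0.0248) and −0.27 (adjusted p = 0.00754). IKBKB did not pass after GC correction (0.15, adjusted p = 0.0697) or with GC correction and a replicate block (0.15, adjusted p = 0.066). The calls of these 4 genes each failed in at least 1 setting that left out a library. The adjusted p then reached 0.0907 for IKBKB (without shCtrl replicate 2) and 0.0698 for BIRC2 (without shmiR155HG replicate 3). It reached 0.091 for IKBKE (without shCtrl replicate 1) and 0.0627 for MAP3K14 (without shmiR155HG replicate 1). The count of 6 genes was 3 without shCtrl replicate 1, shmiR155HG replicate 2 or shmiR155HG replicate 3, and the count of 4 genes was 2 without any 1 of the shmiR155HG libraries.

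Other inhibitors and modulators were the list with the fewest calls. Of 18 genes, all tested, 1 was higher, none was lower by the same test, and the median was 0.033. The share that passed was 5.56%, compared with 15.3% of all genes tested. At an unadjusted p under 0.05 in edgeR 2 were lower, OTULIN and ZC3H12A, and the exact test, DESeq2 and limma-voom called 0 lower. The 1 higher gene was TRAF3, whose product holds NIK at a low level, with a log2 fold change of 0.15 with an SE of 0.044 (adjusted p = 0.0168). Its adjusted p was 0.0953 without shCtrl replicate 1, 0.149 without shmiR155HG replicate 2 and 0.186 after GC correction.

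Well-known target genes of NF-κB outside the 10 members did not move one way. Of 47 genes listed, 33 were tested, 8 were higher, 5 were lower, and the median was 0.043. Of those tested 39.4% passed, compared with 15.3% of all genes tested. PLAU, which encodes urokinase, rose from 50.4 ± 3.45 to 67.7 ± 3.52 CPM (log2 fold change 0.43, adjusted p = 4.19e-05). MYC, the growth regulator, rose from 383.6 ± 20.9 to 483.5 ± 6.44 CPM (0.33, adjusted p = 1.59e-07), and GADD45B, a stress response gene, by 0.27 (adjusted p = 0.000637). In the other direction, TNFAIP8, an apoptosis regulator, fell from 83.6 ± 5.01 to 58.7 ± 3.66 CPM (log2 fold change −0.51, adjusted p = 1.31e-06). SOD2, the mitochondrial superoxide dismutase, had a log2 fold change of −0.26 (adjusted p = 0.00338) and LTA of −0.24 (adjusted p = 2.06e-05). LTA and LTB stand in this list and among the ligands. The count of 5 genes was 3 without shCtrl replicate 2 or shmiR155HG replicate 2.

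**Figure D4:**
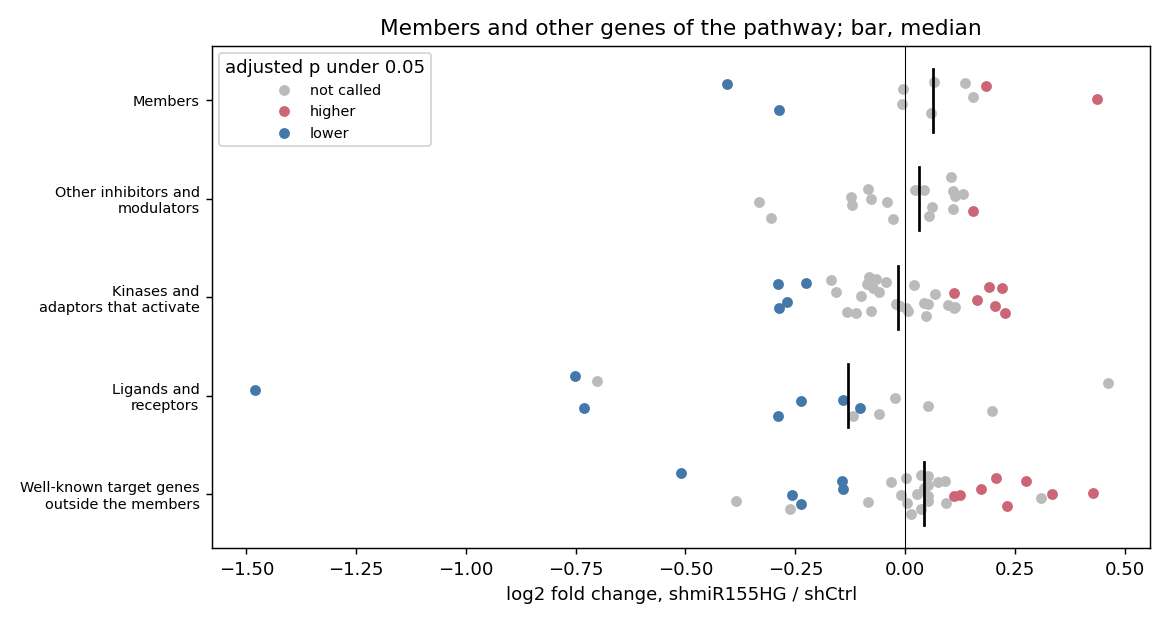
Log2 fold change, shmiR155HG against shCtrl, of the members and of the tested genes of 4 lists from the NF-κB pathway, 1 point per gene. Red points were higher and blue points lower (adjusted p under 0.05), grey points did not pass, and the black bar is the median of each row. All 7 coloured points among ligands and receptors lie left of 0, while the members and target genes have coloured points on both sides.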

How the data were processed

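Poly(A) RNA of 3 shCtrl and 3 shmiR155HG libraries of NK-92 cells was sequenced. HISAT2 was used for alignment to hg38, and the authors deposited raw counts per gene made with StringTie and prepDE, without normalization. Annotation release, strand use and the read length given to prepDE are not given in the sources used here. Of counts from 1 to 59, 53.4% were even, so what 1 count stands for is uncertain, and halved counts were an alternative. Groups were taken from the titles, since replicates 2 and 3 of shmiR155HG have a differing number in the gene name of their treatment field.

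Counts were analysed with edgeR 4.0.16 in R 4.3.3: genes exceeding 1 CPM in 2 or more libraries, TMM scaling, robust quasi-likelihood test, two-sided, Benjamini-Hochberg adjustment over all genes tested, threshold 0.05. CPM values are TMM-scaled, SD is between libraries and SE is of the log2 fold change. Libraries held 33454786 to 39157264 counts, and replicates of a group differed with a mean chi-square of 7.03 to 10.1 per gene. Sampling alone gives about 1 if each count is an independent read or fragment, which is uncertain here. The test was tested on simulated data. Alternatives were DESeq2 1.42.0, limma-voom (limma 3.58.1), edgeR's exact test (P under 0.01 before adjustment, more than 1.2-fold), other scalings and filters, GC correction, a replicate block and each library left out.

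Gene positions, transcripts and GC content came from GENCODE for hg38 (36366 of 36601 gene IDs matched), and promoters and miR-155 from RefSeq. The members and lists were chosen with earlier results of these data known. Genes named from a list were up to 3 per direction with the largest absolute log2 fold change among those past the threshold, at a mean of at least 1 CPM. A gene that this rule names is not reported here. Genes of likeness were the 3 with the highest Pearson r to the member with the largest called change. Other genes were named after their values were seen. Protein sequences were not used here.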

Additional observations from a re-analysis of the deposited data

How the results depend on the processing

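NFKBIA and NFKBIZ were lower in all 17 alternatives, and the count of 2 members lower was the same in each. The count of members higher (2) was 1 by the exact test, whose fold limit of 1.2 exceeds the change of BCL3, 1 after GC correction, 0 with the replicate block and GC correction together, and 1 to 2 when single libraries were left out (1 without shmiR155HG replicate 2 or 3). NFKBIE failed in the combined setting only. Among members that did not pass, log2 fold changes near 0 changed sign. NFKB2 ranged from −0.030 to 0.023 and REL from −0.064 to 0.024 when single libraries were left out. After GC correction REL was at 0.048 and RELA at −0.025, and with the replicate block and GC correction at 0.047 and −0.026. The cause was not tested. Over all genes, 890 were higher and 984 lower. The exact test gave 551 and 466, and leaving out single libraries gave 580 to 891 and 674 to 917, lowest without shmiR155HG replicate 2. The deviations of same-numbered libraries correlated at −0.013, 0.012 and 0.020. These values do not show whether same-numbered libraries were handled together, which the labels do not say. With the replicate block 829 genes were higher and 909 lower, and the member counts stayed at 2 and 2. By the exact test the list counts fell to 0 inhibitors and 0 kinases or adaptors higher, 4 ligands and receptors lower, and 3 target genes higher and 1 lower. Target genes higher were 5 with the replicate block and GC correction, and 1 inhibitor was lower after GC correction with or without the block. MIR155HG rests on 10 to 73 counts per library.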

Other observations

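Genes outside the family with a κB match in a promoter window were counted in the same test, by gene ID, so that a symbol with more than 1 ID counts more than once here and once in the share of genes with a match given above. Of 776 such genes, 81 were higher and 67 lower in shmiR155HG cells (19.1% called, median log2 fold change 0.009). Of 8358 tested genes with a window and no match, 588 were higher and 719 lower (15.6% called, median −0.005). The median transcript GC content was 49.8% in the first group and 47.9% in the second, and its part in the difference was not tested.

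NFKB2 held 5 κB matches over its 3 windows, the most of any member, and 2 of these matches overlapped each other. The windows of NFKB2 held 0, 3 and 2 matches. Counted in the same way, 2 or more matches in a window occurred in 0.740% of all windows. Its log2 fold change was −0.0053 (adjusted p = 0.963 in the quasi-likelihood test of edgeR).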
